A study of Mus musculus with 10 samples.

Results

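Leukocytes leave the blood by a cascade in which endothelial selectins slow the cell and members of the immunoglobulin superfamily hold it. P-selectin (*Selp*) and E-selectin (*Sele*) bind sugars on passing leukocytes, and ICAM-1 (*Icam1*), ICAM-2 (*Icam2*) and VCAM-1 (*Vcam1*) bind leukocyte integrins. Lymphatic endothelium uses some of the same molecules for the entry of dendritic cells and T cells, and ALCAM (*Alcam*) and L1CAM (*L1cam*) have been described at such contacts. Galectins are secreted lectins that bind galactose-containing sugars. Galectin-1 (*Lgals1*), galectin-3 (*Lgals3*) and galectin-9 (*Lgals9*) act on leukocyte adhesion and survival. These 10 genes were taken by symbol from the 46517 Ensembl genes of the deposited count tables, and all 10 were found. They are described in the lymphatic and blood endothelial cells (LECs and BECs) of mouse ear skin, in *Ptx3*-rich against other LECs, and in mice with and without an activating *Pik3ca* mutation.

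The counts came from 7 mice of 5 wk. The 5 mutant mice were Pik3caH1047R;Cdh5-CreERT2, genotype Cre+, in which Cre driven by the endothelial gene *Cdh5* switches the kinase mutant on in endothelial cells, LECs and BECs alike, after topical 4-OHT (4-hydroxytamoxifen) at 3 wk. Control 1 was an untreated C57BL/6J mouse, and control 2 carried the same strain label as the mutants, was Cre- and had received 4-OHT. The controls therefore differ from each other in strain label, breeding and treatment. By the study's methods, every mouse had a C57BL/6J background, after backcrossing. A further Cre- control mouse was not analysed here. Ear cells that passed a sort on Podoplanin and CD31, with immune and red cells gated out, were sequenced singly by Smart-Seq2, which reads along the whole cDNA and has no molecular barcodes. Mutants 3 and 5 filled 2 plates each, which were added up.

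Of 3456 wells, 3248 cells passed the filters (2524 mutant, 724 control), and plates held 99738886–151102969 reads. The labels call all cells sorted LECs, but the study's methods describe a sort of both LECs and BECs. Here 1641 cells were LECs by *Prox1*, *Flt4* and *Mmrn1* and 1490 were BECs by *Flt1*, *Emcn* and *Podxl*. The summed markers of a set had to reach 300 CPM (reads scaled to a fixed library total) and lie above those of the other set. *Pdpn*, which encodes Podoplanin and was not part of this gate, stood at 486 to 760.0 CPM in LECs and 8.90 to 58.6 CPM in BECs. In 1048 LECs both sets reached 300 CPM. *Emcn* is also transcribed in LECs, but the part of each gene, or of doublets, in this number was not tested. The leukocyte gene *Ptprc* was at or under 0.322 CPM in LECs and 0.312 CPM in BECs of every mouse, and the 14 leukocyte markers summed to 44.6 to 96.2 CPM in LECs and 9.48 to 24.7 CPM in BECs. Summed fibroblast markers were higher in control than in mutant sums, at 738 to 991 CPM against 17.6 to 70.3 CPM in BECs and 251 to 465 against 26.9 to 127 CPM in LECs. Spike-in reads were 0.629 to 0.720% in control and 0.211 to 0.327% in mutant LECs, and 0.772 to 1.05% and 0.241 to 0.531% in BECs (of the reads of that cell class in a mouse), and their part in the results was not tested. The transcript of the mutant allele was not analysed here and gives no check of the labels.

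The reads of all cells of a class were added up per mouse, and mice were compared, not cells. Log2 differences are given ± SE of the fit. A gene passed when the adjusted p of edgeR's quasi-likelihood test (Benjamini-Hochberg over all genes tested) was under 0.05. Plates of mutants 1–4 carry numbers of one series, and those of mutant 5 and both controls numbers of another, so genotype and plate series cannot be told apart except through mutant 5. The study's methods call the Cre- controls littermates, which control 1, a separately bred wild type, is not. The labels do not tie single mice to litters. In bulk sums of this kind, more cells with a transcript and more transcript per cell cannot be told apart, and shares of cells with a read are given for that reason.

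Among the 7 members with an entry in RefSeq's table of promoters (GRCm38.p6, 250 bases before to 50 after a start site), 3 held GGANNTTCC, the core letters of many NF-kappaB sites, on either strand. These windows are shown because *Icam1* and *Sele* are classical NF-kappaB targets. Both rose in mutant BECs, but so did *Selp*, which has an entry and held no match. *Lgals3* held a match and did not pass that test. The part of these letters in the rise was not tested. Capitals mark the match, each window is on the plus strand, and the motifs were chosen with the matches known. Start sites are those of RefSeq. The *Lgals3* window lies inside the gene as annotated here (chromosome 14, 47367751–47386160), not before its annotated start.
Icam1, chr9:21015777-21015806, match starting 153 bases before the start site: acttcagtttGGAAATTCCtagatcgcagg
Sele, chr1:164048079-164048108, match starting 145 bases before the start site: ttaactcagtGGATATTCCcagaaaacttt
Lgals3, chr14:47373781-47373810, match starting 69 bases before the start site: tccactgtggGGAAGCTCCgtggtccgtgg
The same letters occur in 4.26% of all 32851 promoters of this length. *Icam1* alone among the 7 also held TTCCNGGAA, the letters of a STAT-type site, which occur in 1.15% of promoters. In the next line the capitals mark that match, which does not overlap the first.
Icam1, chr9:21015888-21015917, match starting 42 bases before the start site: ggcgcgaggtTTCCCGGAAagtggccccga
A match describes the letters and is not a measured binding site. *Icam2*, *Vcam1* and *Lgals1* have no entry in that table.

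The first comparison was between LECs and BECs of the same mice, with the mouse as a block. Selectins, *Vcam1*, *Icam1*, *Icam2* and *Lgals3* were lower in LECs, *L1cam* and *Lgals1* were higher, and *Lgals9* and *Alcam* did not pass. In all, 8 of 10 members passed, 6 lower and 2 higher in LECs, where 23.4% of 21911 genes passed (12.8% higher and 10.7% lower).

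**Figure D1:**
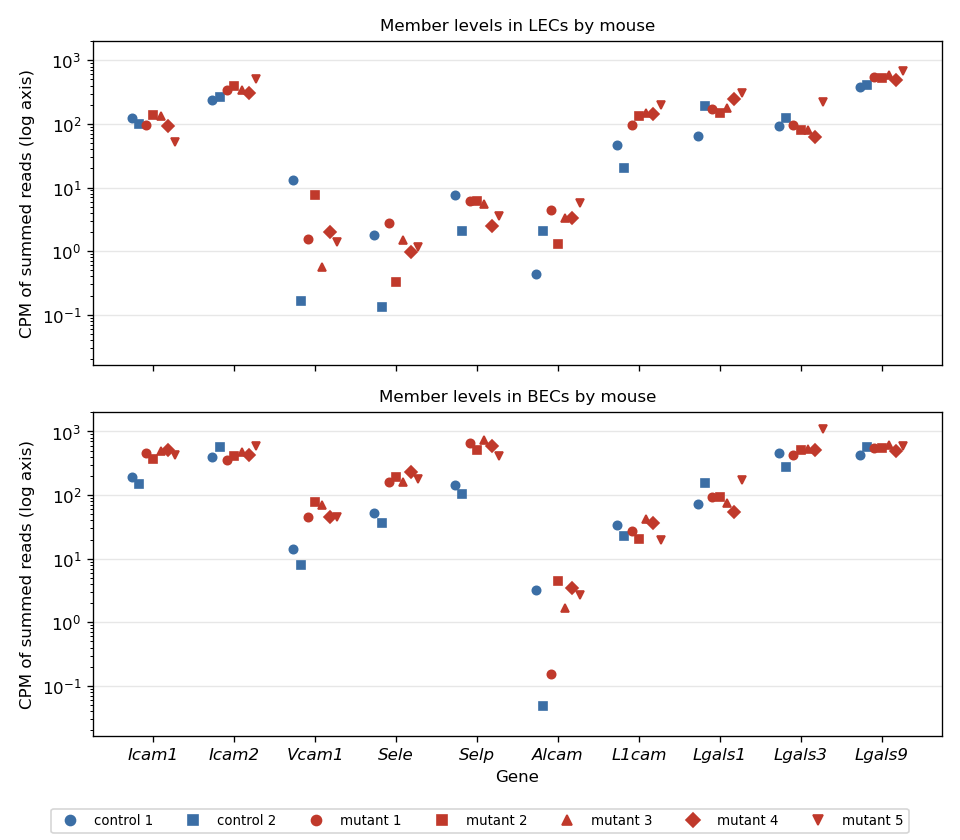
CPM of each member in the summed reads of LECs (top) and BECs (bottom), on log axes, with 1 point per mouse (blue, controls; red, mutants). The selectins lie far lower in LECs than in BECs, *Lgals9* and *Icam2* are high in both cell types, and mutant 5 has the highest *Lgals3* in both.

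*Selp* (chromosome 1, 164115264–164150026, plus strand) was at 2.07 to 7.51 CPM in LECs and 103 to 738 CPM in BECs. The log2 difference between LECs and BECs was -6.39 ± 0.25 (adjusted p = 4.56e-06). *Sele*, its neighbour on the same strand (chromosome 1, 164048234–164057677), was at 0.131 to 2.73 CPM in LECs and 36.6 to 229.7 CPM in BECs, with a log2 difference of -6.94 ± 0.53 (adjusted p = 4.77e-05). Neither selectin reached in any LEC sum the level of the lowest BEC sum. *Vcam1* (chromosome 3, 116109949–116129688, minus strand) was at 0.163 to 12.9 CPM in LECs and 8.05 to 78.2 CPM in BECs, and the log2 difference was -4.22 ± 0.72 (adjusted p = 0.00359). In LECs of control 1, the highest, 1 cell held 93.2% of the *Vcam1* reads, and without it the level was 0.882 CPM. The *Vcam1* difference did not pass within control mice alone (-2.50 ± 1.49, adjusted p = 0.371).

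*Icam1* (chromosome 9, 21015985–21028817, plus strand) was at 123 and 98.5 CPM in LECs of controls 1 and 2 and at 96.6, 138, 133, 91.2 and 51.2 CPM in those of mutants 1–5. In BECs the same mice had 196 and 148 CPM and 463, 371, 493, 507 and 419.7 CPM. Every mouse had more *Icam1* in BECs, and the log2 difference was -1.76 ± 0.18 (adjusted p = 2.10e-04). Within control mice alone, where 10.4% of genes passed, the difference of -0.60 ± 0.32 (adjusted p = 0.311) did not pass, and within mutant mice, where 19.2% did, it was -2.23 ± 0.21 (adjusted p = 2.31e-04). *Icam2* (chromosome 11, 106377656–106388075, minus strand), which is made by resting endothelium, differed least among the members that passed (-0.45 ± 0.08, adjusted p = 0.00447), and not within mutants alone (-0.27 ± 0.09, adjusted p = 0.0877), with 235 to 515 CPM in LECs and 357 to 590.3 CPM in BECs.

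*L1cam* (X chromosome, 73853778–73896105, minus strand) was higher in LECs by 1.72 ± 0.21 (adjusted p = 6.90e-04) on the log2 scale. The difference was 2.32 ± 0.26 (adjusted p = 5.03e-04) within mutants and 0.20 ± 0.39 (adjusted p = 0.838) within controls. *Lgals1* (chromosome 15, 78926725–78930465, plus strand) was higher in LECs by 0.84 ± 0.18 (adjusted p = 0.0121), with 1.15 ± 0.22 (adjusted p = 0.00789) within mutants and 0.07 ± 0.34 (adjusted p = 0.96) within controls, and it did not pass without mutant 3 (adjusted p = 0.0592). *Lgals3* (chromosome 14, 47367751–47386160, plus strand) was lower in LECs in all 7 mice, with a log2 difference of -2.33 ± 0.16 (adjusted p = 2.52e-05), at 61.3 to 220.2 CPM against 274 to 1077 CPM in BECs. *Lgals9* (chromosome 11, 78962974–78984946, minus strand) was at 387 to 686 and 429 to 621 CPM, a log2 difference of -0.07 ± 0.06 (adjusted p = 0.488). *Alcam* (chromosome 16, 52248996–52454074, minus strand) was at or under 5.63 CPM in both cell types of every mouse, and no direction could be read at that level.

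Divided by exon length, the mean level over 7 mice in LECs was highest for *Lgals9*, at 244 ± 48.1 CPM per kb (SD), and *Lgals1*, at 234 ± 96.2, with *Icam2* at 180.0 ± 47.9, and these 3 overlapped in their SDs. Below them were *Lgals3* at 58.2 ± 28.5, *Icam1* at 41.2 ± 11.9, which overlapped, and *L1cam* at 15.3 ± 8.45. The remaining members stood at or under 1.08 CPM per kb. In BECs *Lgals3* (292 ± 136 CPM per kb), *Lgals9* (255 ± 30.7) and *Icam2* (243 ± 47.7) led and overlapped. *Icam1* was at 146 ± 56.8, *Lgals1* at 128.5 ± 56.0, *Selp* at 103 ± 56.3 and *Sele* at 49.8 ± 25.0 CPM per kb. The first 3 of these overlapped in their SDs with each other and with *Lgals3*. *Icam1* also overlapped with *Icam2*, and *Sele* with *Lgals1* and *Selp*, so these levels form no separate tiers. *Vcam1* (4.91 ± 2.91), *L1cam* (3.90 ± 1.15) and *Alcam* (0.32 ± 0.24) were lowest. These means pool both genotypes. *Vcam1* was at 1.24 CPM per kb in controls and 6.38 ± 1.80 (SD, n = 5) in mutants, and *L1cam* at 3.80 and 3.95 ± 1.31. Part of the exons of *Selp* (14.1%) and *Icam1* (11.7%) overlaps other annotated genes, so that their counts may miss or share reads.

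The second comparison was between mutant and control BECs. Both selectins, *Icam1* and *Vcam1* were higher in mutant BECs, with ratios of mean CPM of 2.62 to 5.13, and no member was lower. That is 4 of 10 members, where 2.12% of 19313 genes passed (1.51% higher).

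*Selp* was at 143 and 103 CPM in the BECs of controls 1 and 2 and at 662, 521, 738, 596 and 415 CPM in mutants 1–5. The log2 fold change was 2.31 ± 0.27 (adjusted p = 0.00773). *Sele* was at 52.05 and 36.6 CPM in controls and 159.9, 195, 162, 229.7 and 179.9 CPM in mutants, a log2 fold change of 2.12 ± 0.23 (adjusted p = 0.00648). For both selectins the groups were well apart. Mutant 5, whose plates carry numbers of the controls' series, lay above both controls, but had the lowest *Selp* of the mutants.

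*Icam1* rose by 1.45 ± 0.18 (adjusted p = 0.00983) on the log2 scale, from the levels given above. *Vcam1* was at 14.02 and 8.05 CPM in control and 45.2, 78.2, 69.3, 44.9 and 45.4 CPM in mutant BECs, a log2 fold change of 2.42 ± 0.39 (adjusted p = 0.0228). The groups did not overlap for either gene. With the plate series in the fit, which leaves mutant 5 against both controls to set the difference, the log2 fold changes were 1.78 ± 0.26 (adjusted p = 0.0562) for *Selp*, 2.04 ± 0.30 (adjusted p = 0.0551) for *Sele*, 1.31 ± 0.24 (adjusted p = 0.0994) for *Icam1* and 2.06 ± 0.48 (adjusted p = 0.184) for *Vcam1*, and none of the 10 passed. Without control 2 or mutant 3, *Vcam1* did not pass (adjusted p = 0.101 and 0.0581).

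Fibroblast markers were higher in the control BECs, as given above, and 5 of the 7 passed the test, lower in mutants, where 0.611% of all genes were lower. Summed mural markers in BECs were at 538 to 986 CPM in controls and 158 to 357 CPM in mutants, with none of 7 passing, and keratinocyte markers at 374 to 559 CPM and 17.1 to 777 CPM. Of 1490 BECs, 539 carried markers of other cell types. Without them, 40 of 159 and 78 of 157 BECs were left in controls 1 and 2. In mutants 1–5, 133 of 183, 147 of 184, 232 of 330, 122 of 174 and 199 of 303 were left. In these remaining cells, *Selp* (2.94 ± 0.44, adjusted p = 0.0134), *Icam1* (2.03 ± 0.31, adjusted p = 0.0137) and *Vcam1* (4.25 ± 0.68, adjusted p = 0.0159) were still higher in mutants. *Sele* (1.87 ± 0.77, adjusted p = 0.187) no longer passed. The part of such cells in the remaining difference was not tested.

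**Figure D2:**
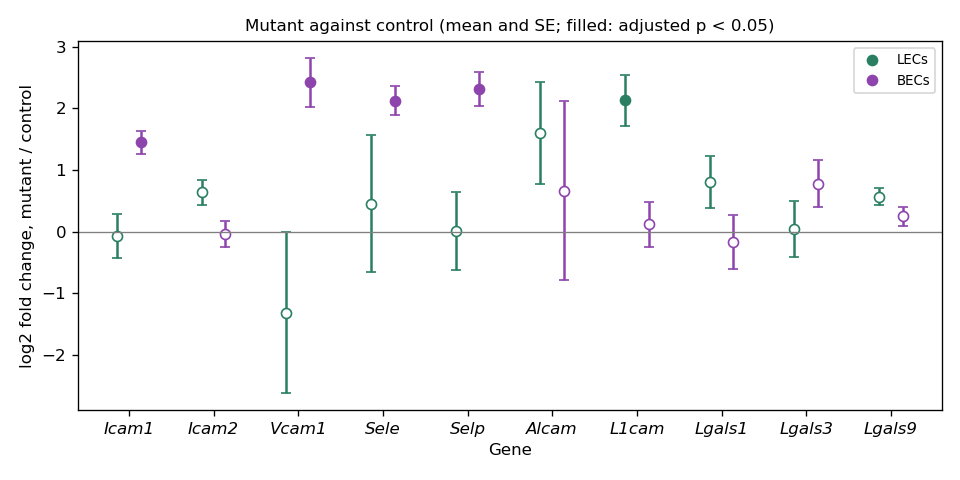
Log2 fold change of mutant over control mice for each member in LECs (green) and BECs (purple), with bars of 1 SE (5 mutant and 2 control mice), and filled points for an adjusted p under 0.05. *Icam1*, *Vcam1*, *Sele* and *Selp* are filled in BECs and *L1cam* in LECs, and the bars of *Vcam1*, *Sele* and *Alcam* are wide where few reads were present.

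The other members gave smaller differences in BECs. *Lgals3* was at 464 and 274 CPM in controls and 422, 512, 532, 511 and 1077 CPM in mutants, a log2 fold change of 0.78 ± 0.38 (adjusted p = 0.296), with mutant 5 well above the rest. *Icam2* (-0.04, adjusted p = 0.934), *Lgals9* (0.25, adjusted p = 0.394), *Lgals1* (-0.17, adjusted p = 0.859) and *L1cam* (0.12, adjusted p = 0.89) did not pass, and their groups overlapped.

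More BECs had a read of these genes in mutants. After every cell was thinned to 50000 reads, 33.3 and 16.6% of BECs had a *Selp* read in controls and 80.9, 55.4, 68.2, 47.1 and 59.4% in mutants. For *Sele* the shares were 17.6 and 10.2% and 39.3, 33.7, 38.8, 33.9 and 34.3%, for *Icam1* 49.1 and 33.1% and 77.05, 59.2, 64.5, 57.5 and 65.7%, and for *Vcam1* 9.43 and 5.10% and 16.9, 15.2, 16.4, 14.9 and 14.2%. For each of these genes all 5 mutants lay above both controls. The two-sided exact permutation test over 7 mice cannot give less than 0.0952, which it gave for all 4 (0.238 after adjustment over 20 tests). In LECs, 8.20 and 2.86% of control and 25.00, 5.35, 20.9, 11.5 and 12.8% of mutant cells had a *Selp* read, at the low levels given above, so a share of this size can accompany a few CPM. Intervals on these shares cover counting error only.

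**Figure D3:**
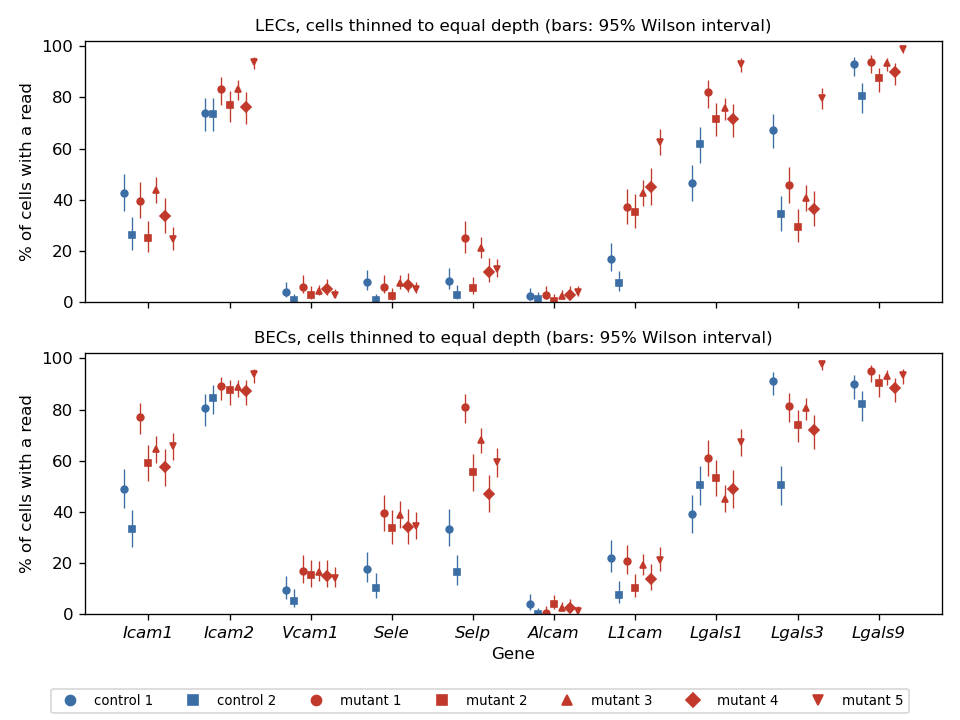
Percentage of LECs (top) and BECs (bottom) with at least 1 read of each member after thinning every cell to 50000 reads, per mouse, with 95% Wilson intervals. All mutants lie above both controls for *Icam1*, *Vcam1*, *Sele* and *Selp* in BECs and for *L1cam* in LECs, and *Lgals3* is highest in mutant 5 and control 1.

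Of the BECs with a *Sele* read, 76.3 to 89.8% also had a *Selp* read in mutants and 50.0 to 60.7% in controls, against 47.1 to 80.9% and 16.6 to 33.3% of all BECs. In the other direction, 43.2 to 54.9% of *Selp*-positive BECs had a *Sele* read in mutants and 30.8 to 32.1% in controls. The selectins were therefore found in overlapping cells, with *Selp* in more of them.

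Because venules are the main site of leukocyte entry, BECs were divided by *Ackr1*, a chemokine-binding receptor of venular endothelium, at 100 CPM. *Ackr1*-rich BECs made up 13.8% and 8.92% of BECs in controls 1 and 2 and 41.0%, 37.0%, 31.5%, 26.4% and 29.7% in mutants 1–5 (exact permutation p = 0.0952). Within mice, *Selp*, *Sele*, *Icam1* and *Lgals3* were higher in these cells, 4 of 10 members, where 4.26% of 19291 genes passed (1.74% higher). No member was lower.

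*Selp* was at 766 and 821 CPM in the *Ackr1*-rich BECs of controls and 1247, 1037, 1593, 1377 and 929.6 CPM in those of mutants. In the other BECs it was at 31.3 and 42.2 CPM and 254, 172, 299, 261 and 183 CPM. The log2 difference within mice was 3.06 ± 0.07 (adjusted p = 4.18e-07), with 4.48 ± 0.13 (adjusted p = 5.54e-06) in controls, where 3.31% of genes passed, and 2.48 ± 0.08 (adjusted p = 7.75e-06) in mutants, where 1.9% did. *Sele* was at 225 and 216 CPM and 308, 412, 307, 481 and 344 CPM in *Ackr1*-rich BECs and at 20.9 and 21.5 CPM and 56.7, 48.3, 87.8, 122 and 106 CPM in the other BECs, a log2 difference of 2.60 ± 0.17 (adjusted p = 1.50e-04).

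*Icam1* was at 447 and 567 CPM and 758, 634, 874, 892 and 709.8 CPM in *Ackr1*-rich BECs, and at 150.4 and 113 CPM and 257, 194, 298, 342 and 289 CPM in the other BECs (log2 difference 1.69 ± 0.10, adjusted p = 8.54e-05). *Lgals3* was at 1038 and 1208 CPM and 614, 825, 719, 705 and 1423 CPM, against 361 and 195 CPM and 288, 299.9, 437, 428 and 921 CPM, a log2 difference of 1.32 ± 0.14 (adjusted p = 0.00166). *Vcam1*, at 1.26 ± 0.31 (adjusted p = 0.0648), did not pass, nor did *Icam2* (-0.31 ± 0.09, adjusted p = 0.0969) and *Lgals9* (-0.25 ± 0.06, adjusted p = 0.0645). Without cells that carry markers of other cell types, the *Icam1* difference was 0.58 ± 0.10 (adjusted p = 0.0149). That fit kept 5 *Ackr1*-rich BECs of control 1. Control 2 kept 3, under the limit of 5 cells for a sum, and was left out.

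**Figure D4:**
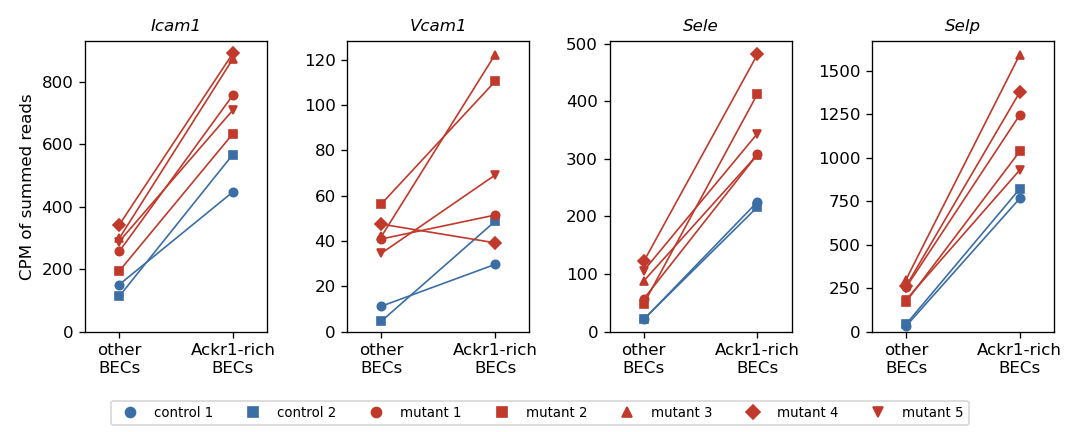
CPM of *Icam1*, *Vcam1*, *Sele* and *Selp* in the summed reads of other and *Ackr1*-rich BECs, with a line for each mouse (blue, controls; red, mutants). Every mouse has more *Icam1*, *Sele* and *Selp* in *Ackr1*-rich cells, and mutants lie above controls on both sides except for *Vcam1*.

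The genotype comparison was then made within each class of BECs, an analysis chosen after the data were seen. In the other BECs, *Selp* (2.70 ± 0.30, adjusted p = 0.0125) and *Vcam1* (2.51 ± 0.44, adjusted p = 0.0438) were higher in mutants, 2 of 10 members where 0.816% of 18624 genes passed. *Sele* (2.01 ± 0.40, adjusted p = 0.0697) and *Icam1* (1.09 ± 0.24, adjusted p = 0.0852) did not pass there. In the *Ackr1*-rich BECs the log2 fold changes were 0.66 ± 0.24 (adjusted p = 0.163) for *Selp*, 0.76 ± 0.24 (adjusted p = 0.122) for *Sele* and 0.62 ± 0.21 (adjusted p = 0.139) for *Icam1*. None of the 10 members passed in these cells, where 1.84% of 16020 genes did. The control sums of *Ackr1*-rich BECs hold 22 and 14 cells. Summed fibroblast markers in these 2 sums were at 176 and 5292 CPM, and at 5.15 to 136 CPM in the mutant sums, and their part in the result was not tested.

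Arterial-type BECs, those with at least 100 CPM of the gap junction gene *Gja5* and less of *Ackr1*, numbered 8 to 26 per mouse. *Selp* was at 4.44 and 0.660 CPM there in controls and 267, 1.48, 10.9, 3.64 and 46.4 CPM in mutants, low in all mice but mutant 1 when set against *Ackr1*-rich BECs. *Icam2* was at 622 to 1093 CPM in these cells. *Vcam1* ranged there from 0.934 to 369.6 CPM. With so few cells, these values are given without a test.

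The third comparison was between mutant and control LECs. Of the 10 members, 1 passed, where 2.76% of 19753 genes did (1.96% higher). *L1cam* was at 47.3 and 20.1 CPM in LECs of controls 1 and 2 and at 97.01, 131, 149, 145 and 199 CPM in mutants 1–5. All mutants lay above both controls, and the log2 fold change was 2.13 ± 0.42 (adjusted p = 0.0394). In control 2, 1 cell held 41.4% of these reads, and without it the level was 11.9 CPM in LECs and 16.3 CPM in other LECs. In BECs *L1cam* was at 33.3 and 22.5 CPM and 27.2, 20.3, 41.4, 36.3 and 19.9 CPM, and the groups overlapped. Leaving out 1 mouse at a time gave adjusted p values of 0.0443 to 0.0854 in LECs, and the call was lost without mutant 2, 3 or 4 (log2 fold change 2.16, 2.11 and 2.12) or without control 2 (1.61). Without cycling cells, which were 0.546 to 2.86% of control and 12.6 to 29.9% of mutant LECs, it was 2.16 ± 0.38 (adjusted p = 0.0525) and did not pass, and with plate series in the fit 2.58 ± 0.49 (adjusted p = 0.0769). Without contaminant and double-marker cells, which left 37 and 36 LECs in controls 1 and 2, it was 1.84 ± 1.15 (adjusted p = 0.41).

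The adhesion molecules that rose in BECs did not pass in LECs. *Icam1* differed there by -0.08 ± 0.36 (adjusted p = 0.935), and *Selp*, *Sele* and *Vcam1* were at the low levels given above. *Icam2* was at 235 and 269 CPM in control and 344, 389, 337, 309 and 515 CPM in mutant LECs (0.64 ± 0.20, adjusted p = 0.131), and *Lgals9* at 387 and 409 CPM and 556, 535, 582, 496 and 686 CPM (0.57 ± 0.14, adjusted p = 0.0733). For both, all mutants lay above both controls. DESeq2, by which 13.3% of genes passed, called both (adjusted p = 0.0347 and 0.00608), and so 3 members in all. *Icam2* also passed with plate series in the fit (1.07 ± 0.18, adjusted p = 0.0463), and *Lgals9* without contaminant and double-marker cells (0.90 ± 0.19, adjusted p = 0.043). *Lgals1*, at 64.6 and 189 CPM and 170.4, 149, 176, 251 and 308 CPM, and *Lgals3*, at 94.00 and 123 CPM and 97.9, 80.8, 79.7, 61.3 and 220.2 CPM, overlapped between genotypes.

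Whether the genotype effect differed between LECs and BECs was tested directly. The difference, LECs minus BECs, was -2.11 ± 0.47 (adjusted p = 0.143) for *Selp*, -1.63 ± 0.38 (adjusted p = 0.156) for *Icam1* and 2.12 ± 0.47 (adjusted p = 0.139) for *L1cam* on the log2 scale. None of the 10 members passed in edgeR, where 0.192% of 21911 genes did. At an unadjusted p under 0.05 there were 6 members, where 11.5% of genes had one, and DESeq2 called 4, where 7.04% of genes passed. Its adjusted p values were 3.59e-04 for *Selp*, 3.80e-04 for *L1cam*, 0.0018 for *Icam1* and 0.0491 for *Icam2*.

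The fourth comparison divided LECs by *Ptx3*, a soluble pattern recognition protein whose transcript marks a class of capillary LECs, at 100 CPM. *Ptx3*-rich LECs were 6.56% and 25.1% of LECs in controls 1 and 2, in numbers 12 and 44 cells, and 33.7%, 33.2%, 34.7%, 41.8% and 44.1% in mutants 1–5. Across genotypes, within mice, *Icam1* was lower in *Ptx3*-rich than in other LECs, and *Icam2* and *Lgals1* were higher. These were 3 of 10 members, where 3.03% of 19758 genes passed (1.09% higher and 1.93% lower).

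*Icam1* was at 33.4 and 50.1 CPM in *Ptx3*-rich LECs of controls and 104, 69.1, 82.6, 75.1 and 23.95 CPM in those of mutants. In the other LECs it was at 130.4 and 117 CPM and 91.9, 175, 165, 107 and 76.95 CPM. It was lower in *Ptx3*-rich cells of 6 of 7 mice, mutant 1 being the exception, with a log2 difference of -1.05 ± 0.22 (adjusted p = 0.0478). *Icam2* was higher in all 7 mice (0.53 ± 0.09, adjusted p = 0.0166), at 264 and 395 and 456, 466, 418, 374 and 560.4 CPM against 233 and 222 and 277, 348, 287, 247 and 472 CPM. *Lgals1* was also higher in all 7 (0.63 ± 0.11, adjusted p = 0.0226). *Lgals3* (0.35 ± 0.13, adjusted p = 0.211) and *Lgals9* (0.23 ± 0.08, adjusted p = 0.169) did not pass. DESeq2, by which 15.5% of genes passed, called 6 members, adding *L1cam* (adjusted p = 0.0447), *Selp* (-1.44 ± 0.45, adjusted p = 0.013) and *Vcam1* (-2.96 ± 0.66, adjusted p = 1.81e-04). Both of the last were at low levels, *Selp* at 0.772 to 4.33 CPM in *Ptx3*-rich and 2.57 to 8.90 CPM in other LECs and *Vcam1* at 0.119 to 0.488 and 0.180 to 13.9 CPM, and both also passed with thinned cells. With 1 mouse left out, adjusted p values ranged from 0.0277 to 0.127 for *Icam1*, 0.0072 to 0.061 for *Icam2* and 0.00957 to 0.0767 for *Lgals1*. The call of *Icam1* held only without mutant 1, that of *Icam2* was lost without mutant 3 or 4, and that of *Lgals1* without mutant 1, 2, 3 or 4. None of the 3 passed without contaminant and double-marker cells.

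*L1cam* stood apart from the other members in these cells. In *Ptx3*-rich LECs it was at 1.95 and 0.238 CPM in controls 1 and 2, which is 8 and 4 reads, and at 166, 226, 246, 194 and 254 CPM in mutants 1–5. In the other LECs it was at 50.9 and 27.6 CPM in controls and 55.8, 80.3, 87.5, 96.9 and 147 CPM in mutants. In both controls *L1cam* was far lower in the *Ptx3*-rich LECs, and in all 5 mutants it was higher in them. The log2 difference between *Ptx3*-rich and other LECs was -5.65 ± 0.48 (adjusted p = 0.0331) in controls, where 0.162% of genes passed, and 1.28 ± 0.21 (adjusted p = 0.0212) in mutants, where 2.52% did. Their average over mice, -0.70, did not pass.

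**Figure D5:**
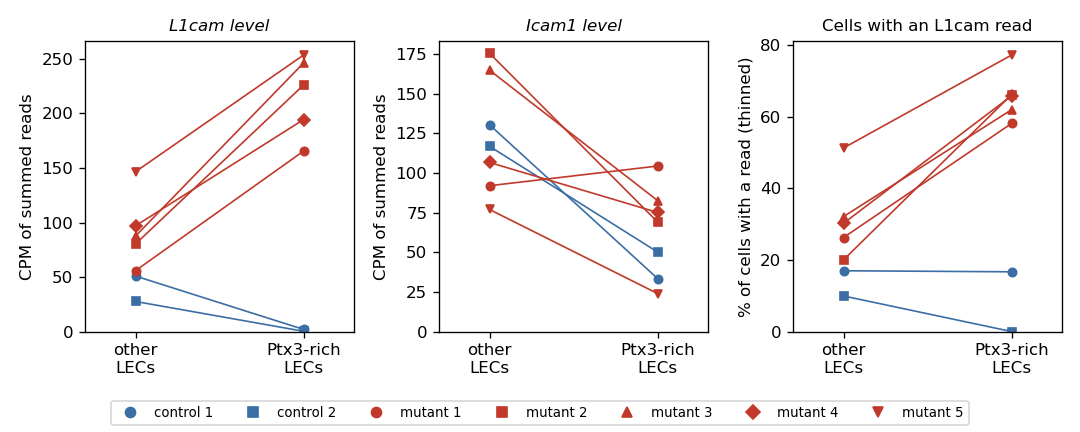
Left and middle, CPM of *L1cam* and *Icam1* in the summed reads of other and *Ptx3*-rich LECs, and right, the percentage of these cells with an *L1cam* read after thinning, with a line for each mouse (blue, controls; red, mutants). The *L1cam* level falls to near 0 in *Ptx3*-rich LECs of both controls and rises in those of all 5 mutants, and *Icam1* is lower there in all mice but mutant 1.

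Mutant against control, *L1cam* in *Ptx3*-rich LECs gave a log2 fold change of 8.17 ± 0.77 (adjusted p = 0.00366), and it was the 1 member of 10 that passed, where 5.03% of 16756 genes did. It passed under all 18 alternatives, at 6.73 to 9.90 on the log2 scale. With plate series in the fit it was 8.36 ± 0.88 (adjusted p = 0.0235). In the other LECs the fold change was 1.27 ± 0.41 (adjusted p = 0.238), and none of the 10 members passed, where 0.0536% of 18662 genes did. There 2 members, *L1cam* and *Lgals9*, had an unadjusted p under 0.05, where 13.6% of genes did, and DESeq2, by which 7.04% of genes passed, called *L1cam* alone (adjusted p = 0.0227). The genotype effect in *Ptx3*-rich LECs minus that in other LECs was 6.93 ± 0.52 (adjusted p = 0.00677) for *L1cam*, 1 of the 4 genes that passed of 19758 (0.0202%). Without contaminant and double-marker cells, which left 5 and 10 *Ptx3*-rich control cells, it was 6.36 ± 1.52 (adjusted p = 0.148) and did not pass.

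In thinned cells, shares with an *L1cam* read were higher in *Ptx3*-rich than in other LECs of all 5 mutants, about the same in control 1 and lower in control 2. After thinning, 2 of 12 and 0 of 44 *Ptx3*-rich control LECs had an *L1cam* read (for 0 of 44, the upper limit of the 95% Wilson interval is 8.03%), and 58.1, 66.1, 61.9, 65.8 and 77.2% of those of mutants 1–5. For the other LECs the shares were 16.96 and 9.92% and 26.2, 20.00, 32.1, 30.2 and 51.2%. In mutants no single cell held more than 8.42% of the *L1cam* reads of *Ptx3*-rich LECs. Cycling cells made up 17.1 to 33.9% of these cells in mutants and 0 to 4.55% in controls, and without cycling cells the fold change of *L1cam* was 8.13 ± 0.73 (adjusted p = 0.00326).

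In the LECs of controls, *L1cam* was found in those with at least 100 CPM of *Cldn11*, a claudin of valve LECs (25 and 22 cells, 45.96 and 115 CPM), and in LECs with at least 1000 CPM of *Lyve1* and under 100 CPM of *Ptx3* and *Cldn11* (96 and 72 cells, 50.8 and 15.5 CPM). In mutants the same classes had 89.2, 133, 178, 156 and 184 CPM and 44.2, 77.7, 90.8, 96.7 and 156 CPM. In *Cldn11*-rich LECs, control 2 thus lay within the range of the mutants, on 22 cells. A single cell held much of the *L1cam* reads of all LECs of control 2, as given above. The level of its *Cldn11*-rich LECs without that cell is not given here, so the overlap may rest on that cell.

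*L1cam* is better known from nerve. The summed level of Schwann and neuron markers was 119 and 28.7 CPM in LECs of controls 1 and 2 and 1.62 to 19.6 CPM in mutant LECs, and none of the 6 that were tested passed. Of the 8 other genes of the L1 family and neural adhesion, 6 were tested in LECs, and *Ncam1* alone rose (2.36 ± 0.39, adjusted p = 0.0249), where 1.96% of all genes did. It rose in BECs as well (4.62 ± 0.47, adjusted p = 0.00442), from 0.782 and 1.76 CPM in controls to 28.5, 24.3, 37.4, 24.9 and 34.5 CPM in mutants.

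Other genes of the adhesion cascade were counted by list. Of 20 other endothelial adhesion and transmigration molecules, 2 of 17 tested rose in mutant LECs, 2 of 18 in mutant BECs, and none fell (1.96% and 1.51% of all genes rose, median log2 fold change 0.28 and 0.32, against -0.01 and 0.01 over all genes). In LECs these were *Cd34*, a sialomucin (3.22 ± 0.43, adjusted p = 0.0134), and *Mcam*, an adhesion molecule of the immunoglobulin family (1.07 ± 0.21, adjusted p = 0.0398). *Cd34* was at 20.5 and 8.79 CPM in *Ptx3*-rich LECs of controls and 565, 674, 712, 778 and 813 CPM in those of mutants. The difference of its genotype effect between *Ptx3*-rich and other LECs passed as well (3.36 ± 0.25, adjusted p = 0.00677). In BECs *Cd151*, a tetraspanin, rose (0.80 ± 0.14, adjusted p = 0.0301), and *Icam4* had 0 reads in both controls and at most 0.741 CPM in mutants.

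Receptors for cytokines and other signals that induce adhesion molecules, among them *Tlr4*, were 12. In mutant BECs 3 rose, where 1.51% of all genes did, among them *Il1r1*, the receptor of interleukin-1 (1.41 ± 0.22, adjusted p = 0.0187), and *Tnfrsf1a*, a receptor of TNF (0.74 ± 0.14, adjusted p = 0.037), and none fell (median 0.39, against 0.01). In mutant LECs none passed. Within mice 10 of the 12 were lower in LECs than in BECs (10.7% of all genes were), including *Il1r1* (-5.13 ± 0.32, adjusted p = 1.91e-05) and *Tlr4* (-5.54 ± 1.12, adjusted p = 0.00832). In *Ackr1*-rich BECs 5 were higher, where 1.74% of all genes were, led by *Il1r1* (1.75 ± 0.20, adjusted p = 0.00183) and *Il6st* (1.50 ± 0.10, adjusted p = 1.54e-04), and 1 was lower (2.52% of all genes were). In *Ptx3*-rich LECs *Osmr* (-1.28 ± 0.20, adjusted p = 0.0143) and *Il6st* (-1.16 ± 0.11, adjusted p = 0.0029) were lower, as *Icam1* and 1.93% of all genes were.

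Of 10 selectin ligands and the enzymes that build their sugars, *B3gnt3*, a glycosyltransferase that extends these sugars, rose in mutant BECs (1.04 ± 0.18, adjusted p = 0.0296). Of all genes, 1.51% rose there. *B3gnt3* and *Chst2*, a sulfotransferase, were higher in *Ackr1*-rich BECs (0.88 and 1.02), the cells with the most selectin, where 1.74% of all genes were higher. Of 9 linkers of ICAM-1 and VCAM-1 to the cytoskeleton, none passed in BECs, where 2.12% of all genes did. In LECs *Vcl*, which encodes vinculin, rose (0.89 ± 0.18, adjusted p = 0.0464), where 1.96% of all genes did. Of 8 other galectins and galectin-binding proteins, none passed by genotype in LECs or BECs. *Lgals3bp* was lower in *Ackr1*-rich BECs (-2.69 ± 0.23, adjusted p = 4.94e-04), in which *Lgals3* was higher and 2.52% of all genes were lower.

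Over 28 sums (4 cell classes of 7 mice), the levels of *Sele* and *Selp* were closest to each other (Pearson's r of log2 CPM 0.99), and each was next closest to *Cysltr1*, a leukotriene receptor. *Selp* was also the gene closest to *Icam1* (0.93) and to *Vcam1* (0.94). *L1cam* was closest to *Klk8* (0.78) and *Thbd* (0.77), *Lgals3* to *Ndufa8* (0.97) and *Lgals9* to *Csrp1* (0.75). The sums share mice and libraries, and the cell class sets most of their spread, so these values are a description.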

How the data were processed

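Per the labels and the methods, ear skin was digested, sorted on Podoplanin and CD31, and single cells were sequenced by Smart-Seq2. The authors aligned reads to GRCm38 with TopHat2 2.1.1, removed duplicates with SAMtools 0.1.18 and deposited raw read counts per gene and cell from featureCounts. The annotation version is not given in the sources used here. The deposited gene length was used for CPM per kb only. Ensembl IDs were matched to GENCODE vM21 (46005 of 46517).

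Cells had at least 200 genes, 50000 reads and at most 10% mitochondrial reads, and genes at least 3 cells (28522). Reads were summed per mouse and class with at least 5 cells; sums held 3181284–194353210 reads. The *Ptx3* and *Ackr1* limit was 100 CPM, and the limit gene was left out of its own test. CPM in the text are of plain sums. Tests used R 4.3.3: edgeR 4.0.16, with genes chosen by filterByExpr, TMM scaling and the quasi-likelihood F test, and DESeq2 1.42.0. Contrasts within mice had the mouse as a block, since both sums come from the same animal, and average controls and mutants by number of mice. Shares of cells were compared by two-sided exact permutation (scipy 1.17.1). On simulated data, 73% of genes changed by 2 on the log2 scale were recovered for LECs by genotype, 72% for BECs and 82% for *Ptx3*-rich against other LECs, with 10, 5 and 7 false calls. The simulated counts held no effect of the mouse block or of plate series. Only genes above a minimum mean CPM were changed, so these rates do not cover members at a few CPM.

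The members, lists and tests were chosen with earlier results of these data known. Beside the members, the text names at most 2 genes per list and direction that passed with the largest fold change, and genes among the 3 with the highest correlation over 28 sums. Fold changes are given for members that passed in edgeR, and for others where the text describes them. Alternatives were DESeq2, its size factors, no filter, each mouse left out, no cycling cells, no contaminant or double-marker cells (over 300 CPM for markers of another cell type, or for both the LEC and BEC sets), thinned cells, the replicate or plate series in the fit, limits of 50 and 200 CPM, and, chosen after the data were seen, cells without contaminant markers, BECs split at 100 CPM of *Ackr1*, each genotype alone, and levels of *Vcam1* and *L1cam* without the cell holding most of their reads. No doublet caller was run. The files of a further Cre- control were not used here.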

Additional observations from a re-analysis of the deposited data

Results flagged for a closer look

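*Lgals3* was far higher in mutant 5 than in the other 4 mutants, and the gap was past Dixon's critical value for 5 samples. Its level in mutant 5 was 220 CPM in LECs, 206 CPM in other LECs, 1077 CPM in BECs, 1423 CPM in *Ackr1*-rich BECs and 921 CPM in other BECs. These sums share cells, so the values are not independent of each other. Mutant 5 is also the only mutant of the controls' plate series, and its part in the *Lgals3* level cannot be told apart from the mouse.

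*Vcam1* was higher in mutant 2 than in the other mutants, at 7.62 CPM in LECs and 11.6 CPM in other LECs, which again share cells. In mutant 2, 1 cell held 92.9% of these LEC reads, and without it the level was 0.543 CPM in LECs and 0.669 CPM in other LECs. Of the 60 groups looked at, chance would pass about 1 in 20.

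The genotype effect on *L1cam* differed between *Ptx3*-rich and other LECs by 6.93 on the log2 scale, in the test of the difference itself given above. It rests on 12 and 44 *Ptx3*-rich control cells.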

How the results depend on the processing

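The count of members that passed stayed within 1.5 times its value in 130 of 156 alternatives, and single members kept their direction and side of the threshold in 709 of 837. Because of the small number of mice, leaving out 1 mouse moved these counts, given here with the number of all genes that passed. By genotype there were 0 to 1 members for LECs (153 to 546 genes) and 3 to 4 for BECs (159 to 586 genes). For *Ptx3*-rich LECs by genotype there were 1 to 2 (288 to 4338 genes). LECs against BECs gave 7 to 8 (3973 to 4801 genes). *Ptx3*-rich against other LECs gave 0 to 3 (234 to 1421 genes), and *Ackr1*-rich against other BECs 4 to 5 (473 to 1366 genes). DESeq2 gave 3 members against 1 for LECs by genotype, 4 against 0 for the difference between LECs and BECs, 6 against 3 for the *Ptx3* contrast and 1 against 0 for other LECs. Over all genes it called 2472 against 546 for LECs, 2238 against 410 for BECs, 1243 against 42 for their difference, 2473 against 598 for the *Ptx3* contrast and 1344 against 4 for its difference by genotype.

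Without cycling cells 0 members passed for LECs by genotype (108 of all genes). Without contaminant and double-marker cells 0 passed in the *Ptx3* contrast (45 genes) and 0 in its difference by genotype (0 genes), and this alternative was not run for *Ackr1* because the controls kept too few cells. Thinned cells gave 5 members in the *Ptx3* contrast (884 genes), and a limit of 200 CPM gave 1 there and 7 in the *Ackr1* contrast. Among those 7, *Icam2* (-0.34) and *Lgals9* (-0.29) were lower in *Ackr1*-rich BECs. Counts over all genes at 200 CPM are not given here. Plate series in the fit gave 0 members for BECs (54 genes) and 1 for LECs (178 genes), *Icam2* in place of *L1cam*. Without contaminant and double-marker cells the 1 member in LECs was *Lgals9*. BECs under 100 CPM of *Ackr1* gave 2 (152 genes) and those above it 0 (295 genes). Within control mice 4 members passed for LECs against BECs (2277 genes) and 1 for *Ptx3* (32 genes).

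Mice of the 2 genotypes share only a replicate number, with correlations of deviations of -0.0468 and 0.0266 in LECs and 0.0293 and 0.107 in BECs. With the replicate block 0 members passed for LECs (3 genes) and 0 for BECs (0 genes). Without the mouse as a block 1 passed in the *Ptx3* contrast, *Vcam1* (-3.93 ± 0.89, adjusted p = 0.0347), at the low levels given above. *Icam1* (adjusted p = 0.0983), *Icam2* (0.0743) and *Lgals1* (0.258) did not pass in that fit. Its count over all genes is not given here.

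Some log2 fold changes changed sign. For LECs by genotype, *Icam1* was 0.19 without cycling cells, 0.0501 thinned and 0.10 with the replicate block, and -0.26 to 0.17 with 1 mouse left out. *Lgals3* there was -0.12, -0.18 and -0.24, and -0.39 to 0.19. For BECs by genotype, *Icam2* was 0.0045 without a filter, 0.31 with plate series and 0.0033 under 100 CPM of *Ackr1*, and -0.28 to 0.25 with 1 mouse left out. *L1cam* in BECs was -1.24 without contaminant and double-marker cells, -0.75 without contaminant cells, -0.19 thinned, -0.14 with the replicate block, -0.46 with plate series and -2.12 in *Ackr1*-rich BECs, and -0.14 to 0.44 with 1 mouse left out. *Lgals1* in BECs was 0.62, 0.56, 0.62 with plate series and 0.0562 under 100 CPM of *Ackr1*, and -0.61 to 0.47, and *Lgals3* was -0.38 in *Ackr1*-rich BECs. *Lgals9* in LECs against BECs was 0.0045 within mutants. In the *Ptx3* contrast *L1cam* was 1.28 within mutants and -1.06 to 0.31 with 1 mouse left out, and *Lgals3* -0.33 within controls. In the *Ackr1* contrast *L1cam* was -0.54 without contaminant cells (and so without control 2), -0.66 within mutants and -0.29 to 0.55 with 1 mouse left out, and *Lgals1* 0.40 within controls. Except where given, the cause was not tested.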
